A study of Mus musculus with 4 samples.

Results

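The array labelled proB ALL, a leukemia grown from AF4-MLL cells, was set against the array of normal bone marrow, 1 array a side. Both arrays come from a mouse series of 4 arrays, which also holds a mixed lineage leukemia and a biphenotypic one called B/T BAL, 1 array each. The mice are C57BL6 in the title of the series. The proB ALL arose in mice from hematopoietic stem or precursor cells that had been transduced with AF4-MLL, and so did the B/T BAL. The mixed lineage leukemia arose from such cells given both fusions, AF4-MLL and MLL-AF4. Normal bone marrow cells, with no transduced gene in their labels, were the control. Leukemic marrow was taken from moribund mice months later, and the cells were typed by flow cytometry and not sorted, so each sample is a mixture of whatever cells the marrow held. The sources used here do not give the vector, its promoter, the number of mice behind an array or their age.

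Biotin-labelled RNA was hybridised to Affymetrix arrays of mouse genes, and each value is a MAS5 signal, the summary of the probes of 1 probe set. Of 45101 probe sets, 34945 carried 1 gene symbol and were no control probe sets. They stand for 18193 genes, and the probe set that was brightest on average over the 4 arrays (mean log2 signal) represents its gene. The floor was set at the median of all signals, 189, and 14012 genes exceeded it on at least 1 of the 4 arrays. These are the genes measured. Probe sets with names ending in _x_at, _s_at or _a_at are called here probe sets with shared-probe names. The ending _a_at stands for several transcripts of 1 gene, so it does not by itself mark cross-hybridisation. Differences are of log2(signal + 51.4), a scale that understates the change of dim genes, and fold values are ratios of signals. Where the dimmer signal lay at or below the floor, it was set to the floor and the fold is written "at least". A gene is counted as higher or lower when its log2 difference from normal marrow is at least 1 in size. There is no replicate on either side, so no value below has a replicate error and no difference was tested. The number of arrays limits the precision of every statement.

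MLL (Kmt2a) is a histone methyltransferase that keeps Hox genes active in blood stem cells, and AF4 (Aff1) belongs to a complex that releases paused RNA polymerase. A translocation between both genes makes a pair of reciprocal fusions, MLL-AF4 and AF4-MLL, and in people it is known above all from acute lymphoblastic leukemia of infants with a pro-B cell phenotype. Pro-B cells are B cell precursors that rearrange their heavy chain genes and express the surrogate light chain (Vpreb1, Igll1), the recombinases Rag1 and Rag2 and the factors Ebf1 and Pax5. Killer lymphocytes, which are natural killer (NK) cells and cytotoxic T cells, carry granules of perforin and granzymes and are guided by the factors Eomes and Tbx21 and by cytokines of the common gamma chain family.

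The scale of the deposited values was the same on all 4 arrays, with a trimmed mean of 1000 after leaving out 2% of probe sets at each end. The 3' to 5' ratio of Actb was 2.47 on the array labelled proB ALL and 1.87 in normal marrow, and that of Gapdh was 1.28 and 0.944. Signals above the floor were found for 46.3% and 47.2% of probe sets. The median log2 difference of all genes measured was -0.11.

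Markers of the labelled cell type were low. Of 12 pro-B markers, 11 had a probe set, and 3 of these (Cd79a, Cd79b and Blnk) lay above the floor on the array labelled proB ALL, against 9 in normal marrow. Their summed signal was 3808 against 37810, with 10 lower and 0 higher. The defining markers Ebf1, Vpreb1, Igll1, Rag1 and Dntt had 128, 30.1, 64.6, 1.76 and 82.8 on the array labelled proB ALL, all below the floor, against 697, 11111, 4111, 1721 and 2913 in normal marrow. Pax5 lay below the floor on both arrays, at 99.2 and 185, and so did Rag2, counted among the 10 lower, at 7.81 and 122. These RNA values go against the label, so the sample is called here only by its label. In RNA of unsorted marrow, fewer cells of a type and less RNA per cell cannot be told apart.

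Markers of NK cells were high instead. All 7 NK markers with a probe set, of 8 listed, were higher and lay above the floor, with a summed signal of 102596 against 3906 in normal marrow. For Prf1 this holds only for a probe set with a shared-probe name (_a_at), and without such probe sets its difference was -0.68. The same sum was 2387 for the mixed lineage leukemia array and 855 for the B/T BAL array. T cell markers were split. Of 7 with a probe set, 3 lay above the floor, Cd3d, Cd3g and Zap70, and all 3 were higher, while Cd3e was lower and Cd4, Cd5 and Cd8a were all below the floor. Their summed signal was 18140 against 3269. Markers of most other marrow cells had lower sums on the array labelled proB ALL, and the part that a change in the mixture of cells has in the results was not tested. The sum was 976 against 127725 for red cell precursors, 99876 against 295194 for neutrophils, 19338 against 36011 for monocytes and 12810 against 25666 for macrophages. It was 1465 against 15160 for megakaryocytes, 294 against 69403 for eosinophils and 2600 against 7276 for stroma. Neutrophil, monocyte and macrophage markers were all above the floor, with S100a8 at 39668, Csf1r at 5169 and C1qa at 4106. Lower by at least 2-fold were 4 of 6 neutrophil, 3 of 4 monocyte and 2 of 4 macrophage markers. The monocyte marker Ccr2 was higher, at 11910 against 3169, and made up most of the monocyte sum.

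**Figure D1:**
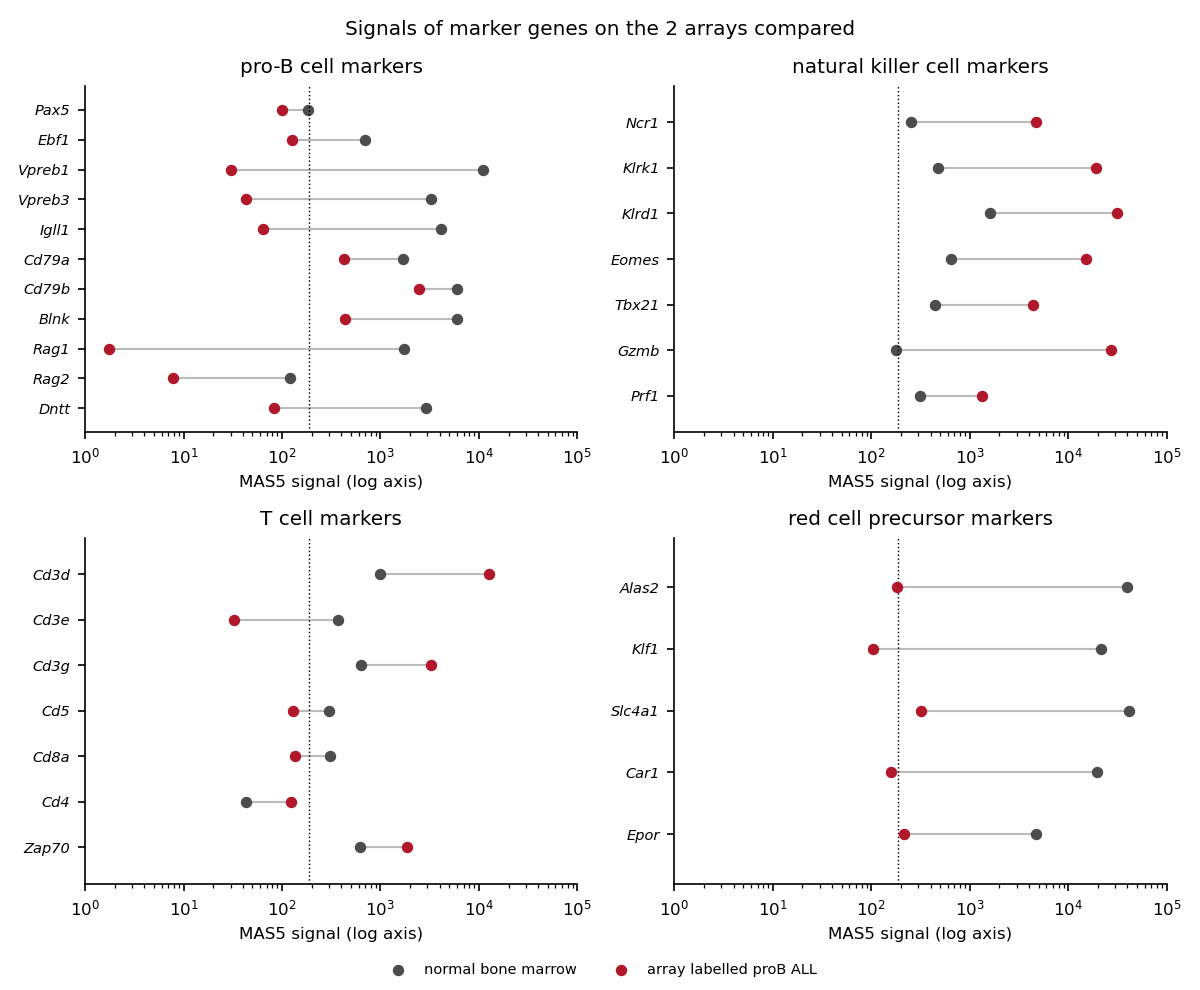
MAS5 signals (log axis) of marker genes of 4 cell types on the array labelled proB ALL (red) and the normal bone marrow array (grey), 1 array each, with a dotted line at the floor of 189. The 7 NK markers lie to the right of normal marrow (Prf1 turns to -0.68 without probe sets with shared-probe names). Of 11 pro-B markers 10, and all 5 red cell markers, are lower by at least 1 on the log2 scale. Of the T cell markers Cd3d, Cd3g and Zap70 are higher and Cd3e lower.

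Over all genes, lower values were more frequent than higher ones. Of the 14012 genes measured, 1582 (11.3%) were higher and 2623 (18.7%) lower, and these shares are the background for every count of a gene list below. Both signals lay at or below the floor for 82 of the higher and 239 of the lower genes. Among 5228 genes with at least 2 probe sets above the floor, all probe sets were higher for 290 (5.55%) and all lower for 552 (10.6%), and 119 had probe sets at least 2-fold apart in opposite directions. Genes were also compared with all other arrays: 412 (2.94%) were at least 2-fold above each of the other 3 arrays and 314 (2.24%) at least 2-fold below each.

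**Figure D2:**
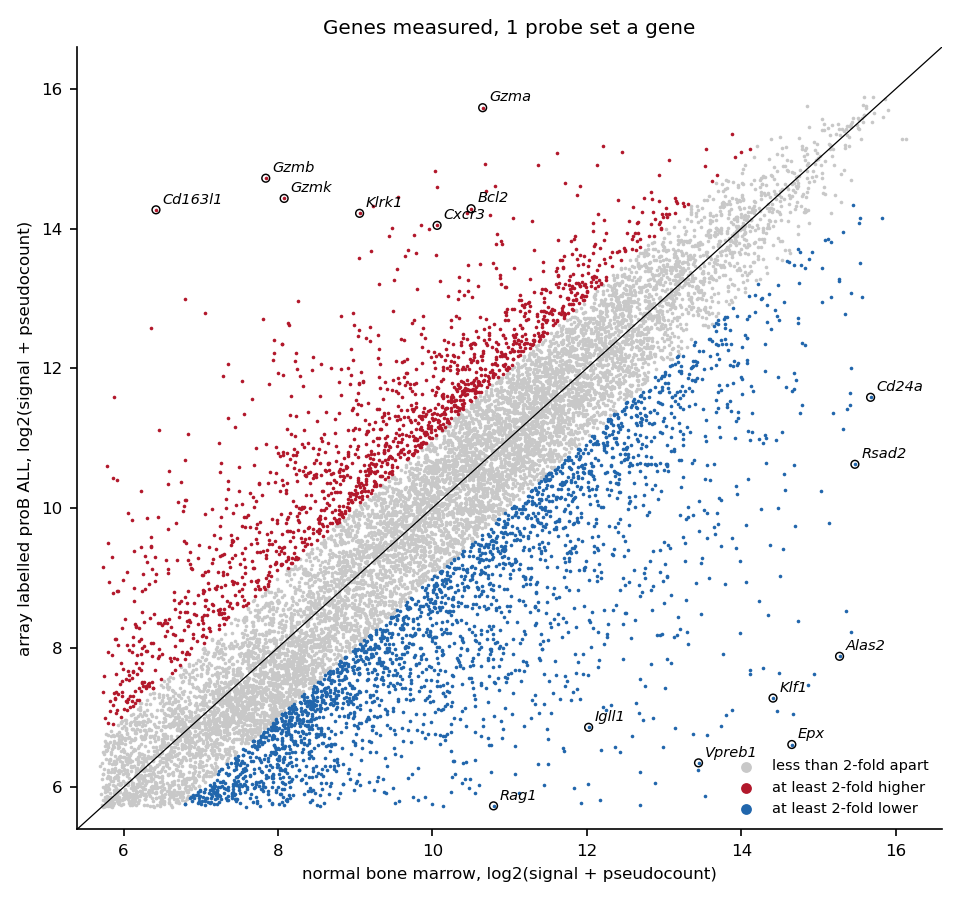
Each point is 1 of 14012 genes measured, with log2(signal + 51.4) in normal bone marrow on the x axis and on the array labelled proB ALL on the y axis. Red points (1582) are at least 2-fold higher, blue points (2623) at least 2-fold lower, and circled genes are named in the text.

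Of the genes of granule proteases and killing proteins, 13 of 18 measured were higher and 0 lower, with a median log2 difference of 2.55. Gzmb, a granule protease that starts cell death in the target, had 26953 against 178, at least 143-fold higher. Gzmk, another granzyme, had 22046 against 219. Gzma, granzyme A, had 54327 against 1556 and was as high in B/T BAL, at 52157, while Gzmb and Gzmk were low there, at 57.8 and 168. Serpinb9, an inhibitor that shields killer cells from their own granzyme B, had 22321 against 702. Serpinb9b, a related inhibitor, had 7916 against 256. Ctsw, a cysteine protease of killer cells, had 24654 against 1015, and Fasl, the death ligand that binds Fas, had 5173 against 214. Prf1, the pore-forming perforin, was much less far apart, at 1344 against 310. Its probe set has a shared-probe name ending in _a_at, and the other one read 232 against 402, a log2 difference of -0.68. Perforin therefore has no settled direction, while both probe sets of Fasl and of Serpinb9 were higher.

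Receptors of NK cells and their adapters were higher for 18 of 23 genes measured and lower for 2 (Klra2 and Fcgr3), with a median of 3.40. Klrk1 (NKG2D), which binds stress ligands and activates killing, had 19005 against 481. Klrc1 and Klrd1, the chains of the receptor NKG2A and CD94 that reads nonclassical class I molecules, had 20421 against 550 and 31042 against 1597. On the other probe set of Klrc1 the values were 2082 and 52.5. Ncr1 (NKp46), an activating receptor, had 4694 against 251, Crtam, an adhesion molecule of activated killer cells, had 4200 against 113, and Cd244a, a SLAM family receptor, had 6815 against 398. Most of these were near or below the floor in B/T BAL, where Klrk1 had 17.0 and Klrd1 65.8. In mixed lineage leukemia Klrk1, Klrc1 and Klrd1 lay above the floor, at 521, 511 and 1294, near normal marrow. Ncr1 lay below the floor there, at 96.9, and Cd244a had 1537, above normal marrow.

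Transcription factors of killer lymphocytes had a median of 1.46, with 12 of 20 higher and 2 lower. Eomes and Tbx21, the T-box factors that set the killer program, had 15148 against 641 and 4410 against 449. Stat4, which carries the signal of inflammatory cytokines, had 8073 against 1234. Tox and Gata3, factors of developing T and innate lymphocytes, had 999 against 124 and 432 against 29.3, at least 5.30-fold and at least 2.29-fold higher. The 2 lower genes were Ikzf2 (Helios), at 198 against 1066, and Zbtb16 (PLZF), a factor of innate-like T cells, at 84.9 against 306. Eomes was thus 23.6-fold and Tbx21 9.83-fold above normal marrow.

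**Figure D3:**
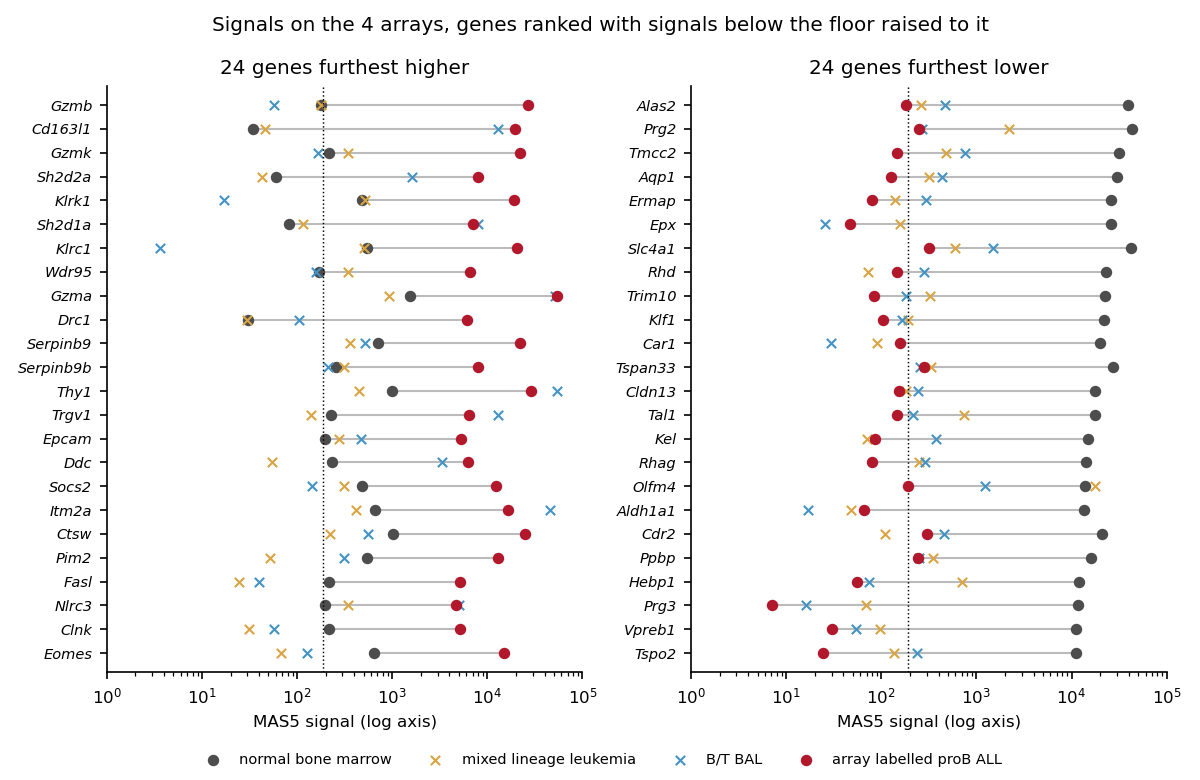
MAS5 signals (log axis) on all 4 arrays for the 24 genes furthest above and the 24 furthest below normal bone marrow, ranked with signals under the floor of 189 (dotted line) raised to it. On the left, Gzmb, Gzmk, Klrk1 and Klrc1 are far higher on the array labelled proB ALL than on the other 3 arrays, while Cd163l1, Sh2d1a, Gzma, Thy1 and Trgv1 are also high in B/T BAL. On the right, the genes of red cells and eosinophils lie near or below the floor on the array labelled proB ALL. These genes lie far below normal marrow on the other leukemia arrays too, whereas Olfm4 is high in mixed lineage leukemia.

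Genes of the CD3 complex and of T cell surface proteins were unevenly placed, with 12 of 20 higher and 2 lower (Cd3e and Cd8b1) and a median of 2.37. Thy1, a surface protein of T cells and some NK cells, had 28959 against 995, and Cd2, an adhesion receptor of T and NK cells, had 12388 against 746. Cd7, found on both lineages, had 9369 against 582. Cd247, the CD3 zeta chain that T cell receptors and NK receptors share, had 3788 against 216. Cd3d and Cd3g had 12582 against 1002 and 3290 against 632, but Cd3e had 32.3 against 372, and its single probe set read 11474 in B/T BAL. The coreceptors Cd4 and Cd8a had 122 and 135, below the floor, against 42.9 and 307. Trat1, an adapter at the T cell receptor, had 1588 against 59.4.

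Members of the T cell receptor signalling list were higher for 15 of 28 genes and lower for 1, with a median of 1.27. Sh2d1a and Sh2d2a, adapters of SLAM receptors and of T cell signalling, had 7061 against 81.6 and 8057 against 59.7. Prkcq, a protein kinase C, had 9828 against 673. Txk and Fyn, tyrosine kinases, had 3989 against 295 and 6550 against 815, and Rasgrp1, which loads Ras, had 4901 against 581. NK cells and T cells share most of these proteins. Genes that start the T lineage had no common direction, with 7 of 21 higher, 6 lower and a median of -0.23. Lef1 and Satb1 had 3199 against 687 and 8046 against 2171, whereas Rag1 and Dntt were below the floor.

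Of 7 measured genes of gamma delta T cells, 1 was higher and 3 were lower, but that 1 was far apart. Cd163l1, a scavenger receptor of gamma delta T cells, had 19681 against 34.2, at least 104-fold higher, and its other probe set read 6545 against 14.9. It was high in B/T BAL too, at 13017. Trgv1, a variable segment of the T cell receptor gamma chain, had 6350 against 228 in normal marrow and 12864 in B/T BAL. Blk, a kinase of B cells and of some gamma delta T cells, was lower at 288 against 3007, and Sox13 and Zbtb16 were at 87.9 and 84.9, below the floor. Other receptor segments were chosen after their values were seen. Trgv4 had 4382 against 194. A probe set of Trbv1 with a shared-probe name read 11369 against 1356, and the other one was below the floor on both arrays. Whether these RNAs come from rearranged or germline segments was not tested.

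In the list of the common gamma chain family and its signalling, 10 of 21 genes were higher and 1 lower, with a median of 0.94. Il2rb, a receptor beta chain of that family, had 15343 against 814, and Il2ra, its alpha partner, had 1882 against 179. Il7r had 13196 against 2486, and it was also high in B/T BAL, at 8906, as was Il2ra, at 1921. Socs2 and Socs3, inhibitors that cytokine signals switch on, had 12227 against 479 and 2809 against 472. The 1 lower gene was Il15, the ligand, at 88.0 against 1028.

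Receptors of other cytokines had a median of 1.16, with 12 of 23 higher and 4 lower. Il18r1, which binds an inflammatory interleukin, had 23633 against 1604. Tnfrsf9 and Tnfrsf18 (GITR), costimulatory receptors, had 3791 against 439 and 6562 against 1160. Il12rb1, a shared interleukin receptor chain, had 1257 against 226, and Il27ra had 834 against 51.4. Il17rb was lower, at 145 against 1025, and read 6044 in B/T BAL. Receptors of checkpoint and exhaustion were higher for 8 of 17 genes and lower for 5, with a median of 0.98. This list was split, with 9 differences above 0 and 8 below, down to -1.76, and the genes named next are higher ones. Cd160, an NK and T cell receptor, had 6097 against 531. Pdcd1 (PD-1) and Ctla4, inhibitory receptors, had 1056 against 59.9 and 447 against 12.1.

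Homing receptors and integrins were higher for 13 of 32 genes and lower for 6, with a median of 0.77. Cxcr3, the chemokine receptor that draws killer and helper lymphocytes to inflamed tissue, had 16856 against 1016. Itgae, an integrin of tissue-resident lymphocytes, had 880 against 103. Itgam and Ccr1, of myeloid cells, were lower, at 163 against 1262 and 717 against 4241, and so was Cx3cr1 at 126 against 716. Chemokines and cytokines split, with 8 of 23 higher and 9 lower and a median of -0.05. Ccl5, a chemokine that killer lymphocytes store, had 30823 against 4432. Il10 had 683 against 58.3. Tnfsf13b (BAFF), Il1b and Ccl6, products of myeloid cells, were lower, at 59.0 against 1452, 179 against 2606 and 2141 against 17372.

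Among genes of the BCL2 family and of caspase control, 3 of 23 were higher and 2 lower, with a median of -0.12. Bcl2, which protects cells from apoptosis, had 19896 against 1398. It had 5 probe sets, all of them higher, with log2 differences from 2.20 to 7.02. Bcl2l11 (BIM), which opposes Bcl2, was higher as well, at 10681 against 2708, and Pmaip1 (NOXA), another death-promoting member, had 1442 against 520. Birc5 (survivin) and Bcl2l1 (BCL-XL) were lower, at 9313 against 22776 and 2433 against 5002. In the list of leukemia-linked genes 3 of 31 were higher and 11 lower. Pim2, a survival kinase downstream of cytokine receptors, had 13072 against 541, and its highest signal on the other arrays was that of normal marrow.

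The genes of the fusion partners themselves went in opposite directions. Kmt2a (MLL) had 2869 against 1160 and 4001 in B/T BAL, while Aff1 (AF4) had 2004 against 4329 and 4263 in B/T BAL. Aff1 was also measured by probe sets at 93.3 against 298 and at 77.8 against 79.7. The other probe set of Kmt2a read 1419 against 916, a log2 difference of 0.60. The probe sets do not say which part of a fusion RNA they would bind, and whether RNA of the transduced fusion adds to these signals was not tested. In the list of MLL, AF4 and their complex partners 5 of 28 genes were higher and 2 lower, with a median of 0.23. Aff3 and Mllt6, further MLL fusion partners, had 7086 against 1935 and 4306 against 988, and Mllt11 had 1263 against 347. Ccnt2, a cyclin of the elongation kinase, had 6321 against 1726, but another of its probe sets read 418 against 1022. Ell2, an elongation factor that plasma cells use, was lower, at 308 against 5703.

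Hox genes and their TALE cofactors, textbook targets of MLL fusions, were not higher for any of the 17 genes measured and lower for 5, with a median of -0.40. Hoxa9, the best known of them, had 171 against 743, and its other probe set read 295 against 280. Hoxa9 was also near the floor in B/T BAL, at 269, and at 320 in mixed lineage leukemia. Meis1 had 45.8 against 282, and its 3 probe sets were all lower. Pbx3 had 239 against 948, and Hoxb3 had the highest difference, 490 against 271. For 10 of the 17 genes both signals lay at or below the floor. Hoxa9 was also near the floor in B/T BAL, at 269, and at 320 in mixed lineage leukemia. These 10 count as measured only because they exceeded the floor on the mixed lineage leukemia or the B/T BAL array. Among genes above the floor on either of the 2 arrays compared, the median was -1.05. The list median was 1.35 for the mixed lineage leukemia array against the same normal array. Because the filter admitted genes through that array, its median cannot be read against the -0.40. For the B/T BAL array it was -0.09. These differences between leukemias were not tested.

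Ribosome biogenesis factors were higher as a group: 15 of 26 genes were higher, 0 lower, and all 26 had a difference above 0, with a median of 1.08. Utp20 and Rrp12, which process ribosomal RNA precursors, had 3607 against 670 and 1907 against 350. Wdr43, of the small subunit processome, had 6528 against 1919, and Nop16, Nop56 and Nolc1, proteins of the nucleolus, had 5204 against 1605, 12455 against 3954 and 7538 against 2409. Against the same normal array, which all these comparisons share, B/T BAL had a median of 0.95 and mixed lineage leukemia one of -0.90. Cytosolic ribosomal proteins had 5 of 32 higher, 0 lower and a median of 0.10, which became 1.02 without probe sets with shared-probe names. Subunits of oxidative phosphorylation had none higher or lower among 36, with a median of 0.03. Myc, a factor that drives ribosome synthesis, had 5373 against 2774, a difference of 0.94, and 9292 in B/T BAL. Mxd1 and Mxi1, which oppose Myc at the same DNA sites, were lower, at 951 against 11696 and 620 against 7817. Markers of neutrophils and red cell precursors had lower sums on the same array, and their part in the values of Mxd1 and Mxi1 was not tested.

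Enzymes of cholesterol and fatty acid synthesis were higher for 11 of 24 genes and lower for 1, with a median of 0.94. Fasn, fatty acid synthase, had 8767 against 1254 and 7325 in B/T BAL. Cyp51 and Hmgcs1, enzymes of the sterol pathway, had 2671 against 581 and 9419 against 3311, and Insig1, the sterol-sensing brake on the pathway, had 4144 against 1343. Scd2 and Scd1, which desaturate fatty acids, went apart, at 14691 against 3613 and 263 against 2908. Glycolytic genes had no common direction, with 3 of 22 higher, 6 lower and a median of -0.19. Pfkp, the platelet form of phosphofructokinase, had 14015 against 1765, and Slc2a1, a glucose transporter, had 5177 against 1391. Hk3 and Hk1, hexokinases of myeloid and red cells, had 983 against 10133 and 2331 against 9349, and Ldhb had 429 against 2536.

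**Figure D4:**
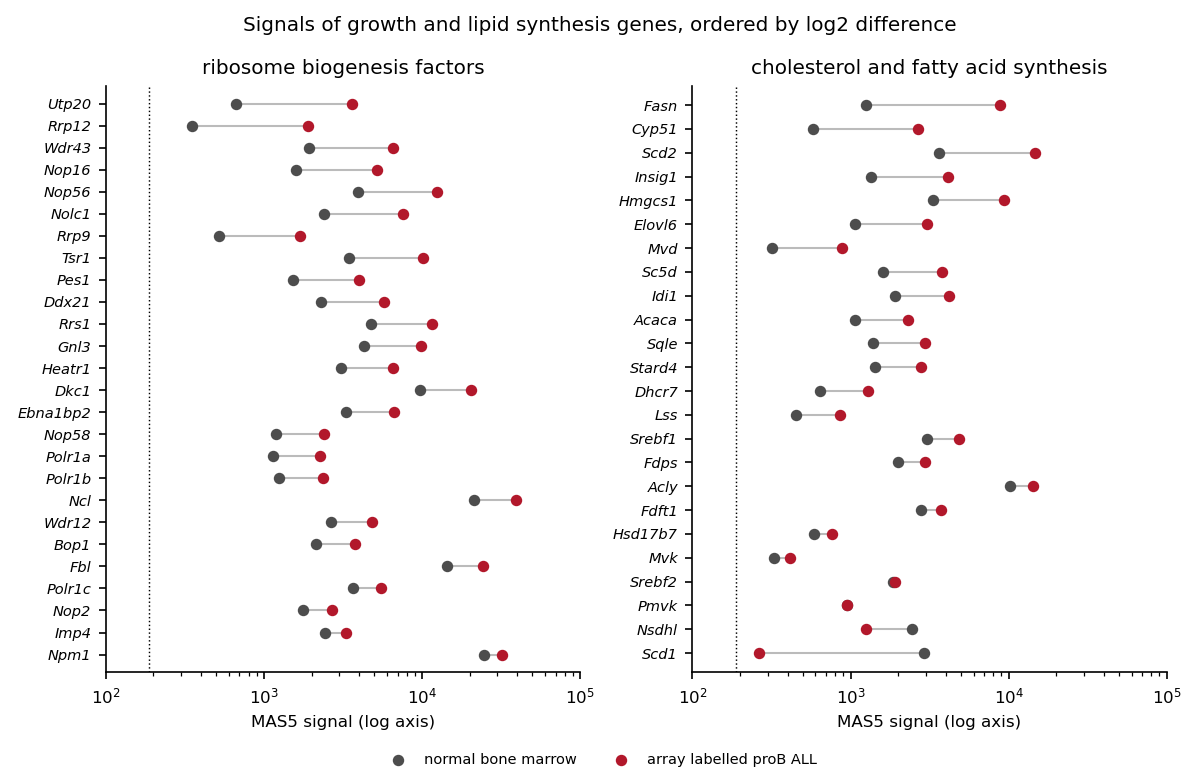
MAS5 signals (log axis) of ribosome biogenesis factors (left, 26 genes) and of cholesterol and fatty acid synthesis genes (right, 24 genes) on the array labelled proB ALL (red) and in normal bone marrow (grey), ordered by log2 difference. All 26 genes on the left lie to the right of normal marrow, and on the right Scd1 and Nsdhl lie to the left of it.

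Promoter windows were searched because members of 3 lists lay together on one side: killing proteins, globins and red cell membrane proteins, and ribosome biogenesis factors. Each window held 250 bases before and 50 after the first listed gene start in RefSeq (GRCm38.p6), for 11248 of the genes measured. The motifs were the STAT motif TTCNNNGAA, the GATA motif AGATAA and the E-box CACGTG, each on both strands, and none contains another. The STAT motif was in 5 of 16 windows of killing proteins, against 7.07% of all windows. Among the 5 was Lyst, which was not higher, at 6215 against 6559. The GATA motif was in 5 of 16 windows of globins and membrane proteins, against 7.12%, and the E-box in 6 of 21 windows of ribosome biogenesis factors, against 9.64%. Over the 1249 windows of all higher genes the E-box share was 10.1% and the STAT share 7.21%, and over the 2098 windows of all lower genes the GATA share was 8.72%. These counts describe letters in a window and show no binding. The windows of 6 genes with large differences are shown with the motif in capitals, Gzmb and Gzmm for the STAT motif, Rhd and Kel (blood group proteins of red cells) for the GATA motif, and Utp20 and Wdr43 for the E-box. They lie, in GRCm38.p6, Gzmb at chr14:56262285-56262584 on the minus strand, Gzmm at chr10:79688770-79689069 on the plus strand, Rhd at chr4:134864286-134864585 on the plus strand, Kel at chr6:41704276-41704575 on the minus strand, Utp20 at chr10:88826765-88827064 on the minus strand and Wdr43 at chr17:71615965-71616264 on the plus strand. Each is written 5' to 3' on the strand of its gene.
Gzmb: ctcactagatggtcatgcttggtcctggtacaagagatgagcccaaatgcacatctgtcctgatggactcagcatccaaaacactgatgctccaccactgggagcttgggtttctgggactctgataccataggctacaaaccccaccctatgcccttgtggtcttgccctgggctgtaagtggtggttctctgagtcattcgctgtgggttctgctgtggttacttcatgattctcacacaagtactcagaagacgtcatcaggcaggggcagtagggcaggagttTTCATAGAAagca
Gzmm: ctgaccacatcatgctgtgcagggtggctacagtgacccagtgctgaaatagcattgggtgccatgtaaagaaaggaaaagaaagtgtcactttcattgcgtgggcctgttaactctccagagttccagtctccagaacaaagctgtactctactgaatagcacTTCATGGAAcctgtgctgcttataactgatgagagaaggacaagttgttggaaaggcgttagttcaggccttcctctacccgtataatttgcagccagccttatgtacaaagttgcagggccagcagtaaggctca
Rhd: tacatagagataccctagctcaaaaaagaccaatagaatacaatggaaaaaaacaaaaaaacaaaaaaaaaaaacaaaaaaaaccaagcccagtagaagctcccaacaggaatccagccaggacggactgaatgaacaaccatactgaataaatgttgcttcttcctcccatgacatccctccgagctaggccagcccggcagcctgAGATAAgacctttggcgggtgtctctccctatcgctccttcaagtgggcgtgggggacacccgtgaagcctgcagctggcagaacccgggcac
Kel: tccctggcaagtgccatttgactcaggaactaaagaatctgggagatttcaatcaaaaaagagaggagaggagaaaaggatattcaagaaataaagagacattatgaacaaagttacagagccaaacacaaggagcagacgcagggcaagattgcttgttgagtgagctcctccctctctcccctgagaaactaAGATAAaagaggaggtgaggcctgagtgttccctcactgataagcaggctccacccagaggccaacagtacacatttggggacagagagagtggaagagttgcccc
Utp20: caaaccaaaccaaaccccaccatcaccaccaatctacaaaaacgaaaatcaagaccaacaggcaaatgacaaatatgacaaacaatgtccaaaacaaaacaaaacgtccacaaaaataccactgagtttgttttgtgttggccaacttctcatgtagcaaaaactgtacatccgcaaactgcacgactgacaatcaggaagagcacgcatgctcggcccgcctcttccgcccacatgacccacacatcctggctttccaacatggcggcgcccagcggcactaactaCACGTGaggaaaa
Wdr43: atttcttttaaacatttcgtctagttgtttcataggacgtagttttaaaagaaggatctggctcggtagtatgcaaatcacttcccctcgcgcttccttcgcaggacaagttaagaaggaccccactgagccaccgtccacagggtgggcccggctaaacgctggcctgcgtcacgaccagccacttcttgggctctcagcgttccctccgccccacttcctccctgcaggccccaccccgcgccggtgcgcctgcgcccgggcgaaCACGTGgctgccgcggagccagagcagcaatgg

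In the pro-B and pre-B list 3 of 29 genes were higher and 18 lower, with a median of -1.51. Of the 18 lower genes, 10 are the pro-B markers already described. Vpreb1 was at least 58.9-fold lower, Igll1 at least 21.8-fold, Vpreb3 at least 17.3-fold and Dntt at least 15.4-fold. Cd24a, which marks immature B cells among others, had 3017 against 52264 and lay below each of the other arrays, and its other 2 probe sets were lower too. The 3 higher genes, Il7r, Lef1 and Foxo1, are known from T cells as well. Among genes of mature B cells 10 of 25 were lower and 0 higher (median -0.77). The other 15 were neither, among them Ighm, the heavy chain of IgM, at 21174 against 40104. Fcmr, the receptor for IgM, had 172 against 3024, Ms4a1 (CD20) 721 against 5634, Cd22 650 against 3633 and Btk, a kinase of B and myeloid cells, 1117 against 4954. Plasma cell genes had 1 of 11 higher and 2 lower. The higher one was Prdm1 (Blimp-1), which killer lymphocytes also express, at 1116 against 277. The other 8 were neither higher nor lower, with Jchain at 25231 against 20477.

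Of 24 globin and membrane genes 23 were lower and 1 higher, with a median of -5.04. The exception, Hbb-b2, and the lower Hbb-y were below the floor on both arrays. Ermap, a membrane protein of the red cell line, had 80.8 against 25953, Aqp1 (a water channel) 125 against 29770 and Slc4a1 (band 3) 318 against 41904. Tspo2, a cholesterol-binding protein of erythroblasts, had 24.1 against 11096. Heme synthesis enzymes were lower for 17 of 19 genes and higher for 0, with a median of -2.88. Alas2, the first enzyme of that pathway in red cells, was at least 210-fold lower, at 183 against 39547, and Blvrb, Alad and Fech had 469 against 23132, 816 against 17058 and 2183 against 40745. Transcription factors of red cells and megakaryocytes had 18 of 22 lower and 0 higher, with a median of -2.90. Klf1 had 104 against 21735, Gata1 63.8 against 9009, Tal1 145 against 17694 and Gfi1b 169 against 8632. Lmo2, a partner of Tal1 and Gata1 and a known T cell oncogene, had 638 against 15512. Tmcc2 and Tspan33, both among the genes furthest lower, had 146 against 31498 and 282 against 27117.

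Platelet proteins were lower for 13 of 20 genes and higher for 0, with a median of -2.39. Ppbp, a platelet chemokine, had 244 against 16168, Pf4, another one, 883 against 10077 and Gp9, of the von Willebrand receptor, 66.1 against 2276. Proteins of eosinophils, basophils and mast cells had 14 of 16 lower and 1 higher, with a median of -4.10. Epx, Prg2 and Prg3, granule proteins of eosinophils, had 46.3 against 25742, 248 against 43661 and 7.15 against 11783. Alox15, a lipoxygenase, had 2.36 against 6542. Mcpt8, a protease of basophils, had 238 against 9174, and it was high in mixed lineage leukemia, at 39892. The 1 higher gene, named after its value was seen, was Cma1, a chymase.

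Primary granule and promyelocyte genes had 9 of 14 lower and 1 higher, with a median of -2.77. The higher one was Nkg7, a granule membrane protein that killer lymphocytes also make, at 27934 against 7755. Mpo, myeloperoxidase, had 4035 against 43969, Elane, neutrophil elastase, 2058 against 20277 and Fcnb 285 against 6243. Late neutrophil proteins had 22 of 25 lower and 0 higher, with a median of -2.93. Mmp8, a collagenase, had 658 against 21182, Csf3r, the receptor of the neutrophil growth factor, 296 against 9225 and Slpi 976 against 22735. Ltf, lactoferrin, had 2690 against 42139, below each of the other arrays, and Padi4, which citrullinates histones, had 144 against 4090.

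Monocyte genes had a median of -1.21, with 15 of 25 lower and 2 higher, and macrophage genes one of -1.45, with 15 of 23 lower and 0 higher. The 2 higher monocyte genes were Ccr2, at 11910 against 3169, and Ctsc, at 14528 against 3099. F13a1, a clotting factor of monocytes, had 738 against 12879, and Fn1, fibronectin, 666 against 4677. Hmox1, which breaks down heme, had 423 against 5739, and Fcna, a lectin of macrophages, 1069 against 7714. Myeloid transcription factors were lower for 8 of 15 genes and higher for 2, with a median of -1.45. Spi1 (PU.1) had 612 against 3444, Cebpd 682 against 8118 and Cebpb 2243 against 10002. Dendritic cell genes were an exception among the myeloid lists, with 8 of 21 higher and 2 lower and a median of 0.19. The members furthest higher were Cd7, Id2 (14538 against 4705), Batf3 (425 against 107) and Itgax (CD11c, 2322 against 848). The remaining higher members were Tcf4 (4676 against 1922), Tlr7 (1203 against 485), Bst2 (3505 against 1504) and Ccr9 (1643 against 713). NK cells are known to express Cd7, Id2 and Itgax too, but which cells gave the signals of this list was not tested.

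Of 26 stem cell genes 2 were higher and 11 lower, and their median was -0.83. Cd34 had 175 against 1641, Erg 55.3 against 1097, Hlf 39.6 against 532 and Kit, a stem cell receptor, 1366 against 2413, a difference of -0.80. Flt3 had 572 against 796. Genes of DNA replication had a median of -0.62, with 0 of 32 higher and 9 lower, and mitotic genes one of -1.04, with 0 of 33 higher and 18 lower. Cdc6 and Ccne2, which start replication, had 1981 against 9657 and 1278 against 4986. Ube2c and Aurka, of mitosis, had 7889 against 33818 and 1504 against 5952. Mki67, present in all dividing cells, was less far apart, at 19940 against 28986. Hmmr was lower at 2363 against 8064, but leaving out probe sets with shared-probe names turned its difference to 0.66. Markers of red cell precursors and neutrophils, whose immature forms divide, were lower on the same array, and their part in the cell cycle values was not tested. The D cyclins split, with Ccnd2, the form that cytokine signals induce in lymphocytes, at 22847 against 3698 and Ccnd3 at 4130 against 15140. E2f2 had 1989 against 20460, and the inhibitor Cdkn2b had 443 against 33.4.

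Antigen presentation genes were higher in part. In the class I list 8 of 20 were higher and 2 lower, with a median of 0.37. It was 0.97 without probe sets with shared-probe names. Nlrc5, the activator of class I genes, had 9742 against 1352, while mixed lineage leukemia had 557 and B/T BAL 307. Erap1, which trims peptides, had 5140 against 1181, Tapbpl, a peptide editor, 3475 against 830 and Psmb8, of the immunoproteasome, 23598 against 7259. H2-Q10 and H2-T24, nonclassical class I genes with close copies that probe sets may not separate, were lower, at 142 against 3322 and 281 against 1111. Class II genes had 2 of 15 higher and 1 lower, and H2-Eb1 had 15208 against 7080. Interferon-stimulated genes had 5 of 32 higher and 8 lower, with a median of -0.17. The lower ones were led by Rsad2, Cmpk2 and Oas3, antiviral proteins, at 1527 against 45401, 816 against 5920 and 532 against 2196.

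Immediate-early genes, which respond quickly to receptor signals or to handling of cells, went both ways, with 11 of 31 higher, 7 lower and a median of 0.00. Cd69, an activation receptor of lymphocytes, had 3555 against 495, Dusp5 1885 against 265 and Nr4a2 1264 against 165. Fos, in contrast, had 1007 against 6749, and Gadd45a, a stress gene, 167 against 7257, below each of the other arrays. Chromatin enzymes were mostly within 2-fold, with 4 of 29 higher, 2 lower and a median of -0.04. Dnmt3b, which sets DNA methylation, had 4183 against 1227 and 4269 in B/T BAL. Kdm5b, a histone demethylase, had 144 against 1175. Jarid2, a polycomb partner, stood at 7225 against 3575, but leaving out probe sets with shared-probe names turned its difference to -0.11. Of V(D)J recombination and end joining genes 3 of 18 were higher and 4 lower. Atm and Xrcc5 (Ku80), of the DNA break response, had 3718 against 740 and 2402 against 509. Rag1, Rag2 and Dntt, which act in lymphoid precursors, were all below the floor on the array labelled proB ALL. Rag2 was below it in normal marrow too, at 7.81 against 122.

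**Figure D5:**
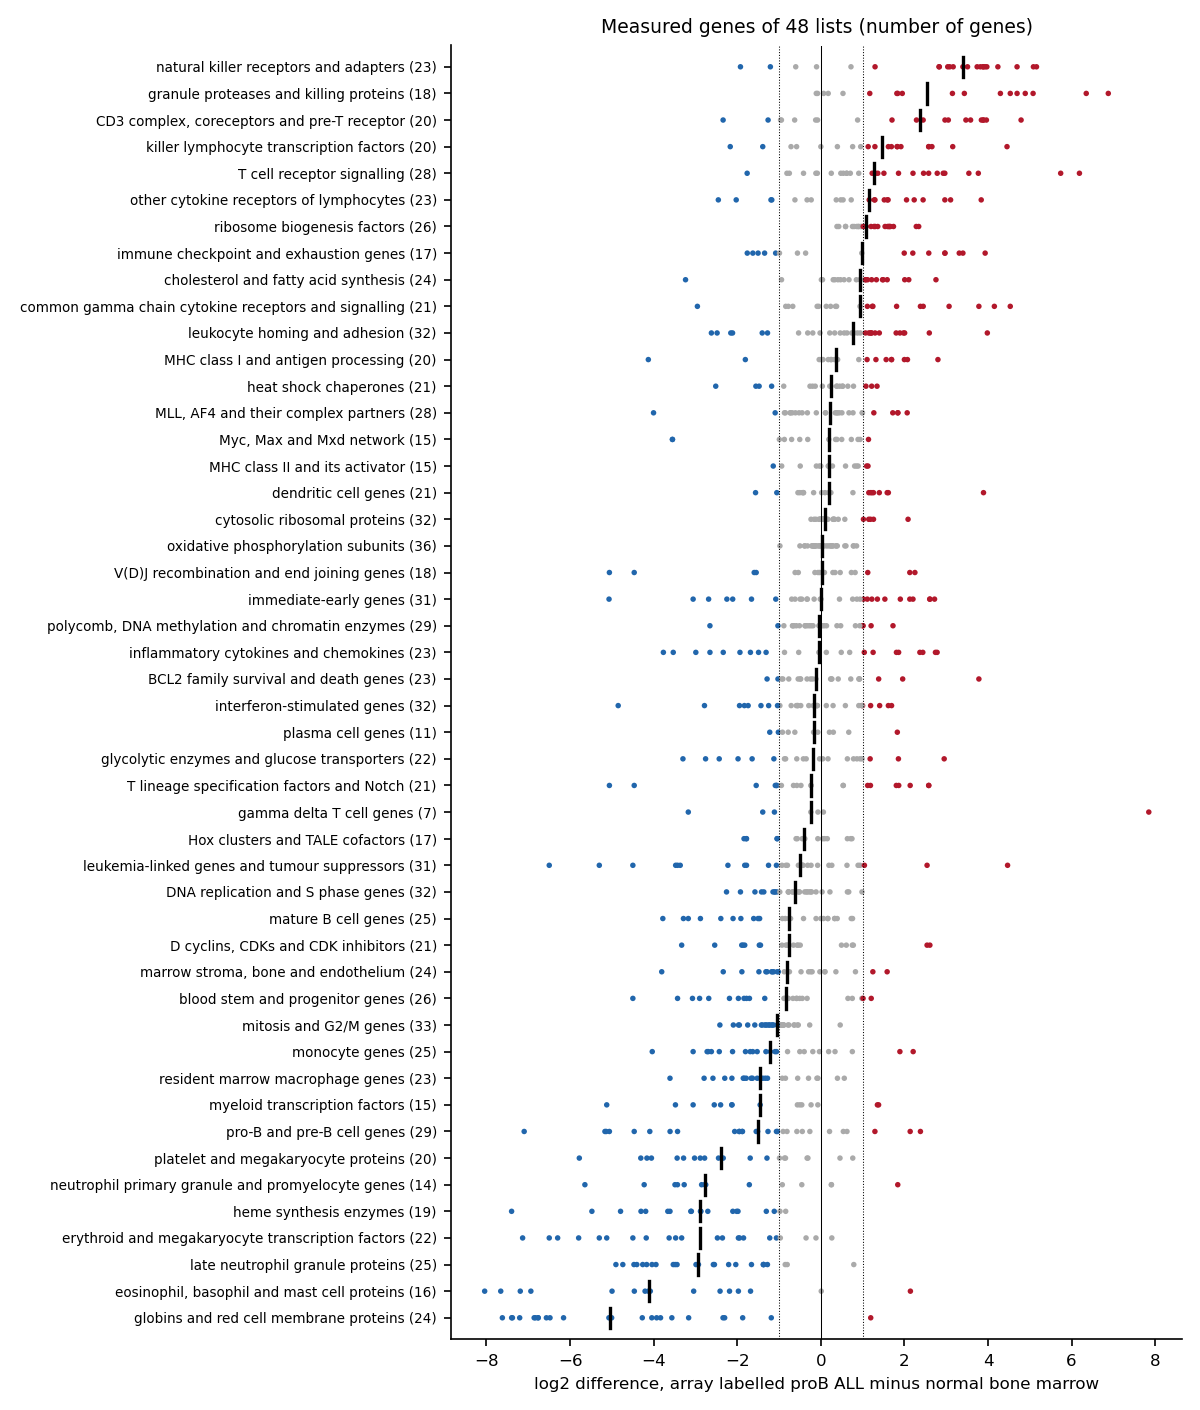
Log2 differences between the array labelled proB ALL and normal bone marrow for the measured genes of 48 gene lists, 1 point a gene, with a black bar at each list's median and the number of genes in brackets. Red and blue points are at least 2-fold higher and lower. NK receptors (median 3.40) and killing proteins (2.55) lie at the top, and red cell membrane genes (-5.04) and eosinophil, basophil and mast cell genes (-4.10) at the bottom.

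Some of the genes furthest above normal marrow belong to none of these lists. Drc1, a subunit of the dynein regulator of cilia, had 6074 against 30.6 and at most 106 on the other arrays. Wdr95 had 6657 against 171. Epcam, an adhesion protein of epithelia, had 5356 against 196, but its other probe set read 388 against 350. Ddc, the decarboxylase that makes dopamine and serotonin, had 6216 against 232 and 3310 in B/T BAL. Itm2a, a membrane protein of T cells, had 16408 against 661 and 45614 in B/T BAL. Clnk, an adapter of NK and mast cells, had 5133 against 214, and Nlrc3, a regulator of T cell activation, 4699 against 196. Below each of the other arrays, beside Cd24a, Ltf, Padi4 and Gadd45a, lay Gpc1 (a glypican, 189 against 2067), Cox6b2 (214 against 10103), Slfn4 (706 against 15087), Rasl11b (62.9 against 1881), Zcchc7 (241 against 2301) and Naip5 (138 against 1796).

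Genes were also read in their order along the chromosomes, a search whose results were named after the values were seen. Of 13930 genes placed by RefSeq, 4 runs of at least 5 neighbours were all higher and 10 were all lower. The longest run of higher genes held 11 neighbours, and the longest run of lower genes 6. The run of 11 is the Gimap cluster with the genes beside it. Gimap proteins are GTPases of lymphocytes that support their survival. Gimap4 had 37150 against 4693, Gimap6 19084 against 1347, Gimap7 12786 against 831, Gimap8 11440 against 1519, Gimap3 8278 against 1413 and Gimap9 6340 against 798. Gimap1 had 4646 against 1038 and Gimap5 2447 against 111. Beside them lay Tmem176b at 9178 against 3529, Tmem176a at 5359 against 1088 and Gpnmb at 758 against 189. Members of such families resemble one another, and shared binding to their probe sets was not tested. Another run was that of Serpinb6b, Serpinb9, Serpinb9b, Serpinb1b and Serpinb6e, and Klre1, Klrd1, Klrk1 and Klrc1 formed a run of 4.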

How the data were processed

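Expression was measured in 4 mouse samples, 1 array each, and the arrays of the leukemia labelled proB ALL and of normal bone marrow were compared. The deposited values are signal intensities that the authors made from the scans using MAS5 (source: the submitters' processing notes). For MAS5, version and parameters were not stated in those notes. The 2% trimmed mean was 1000 on every array, so the deposited scale was kept.

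Gene symbols came from the platform annotation, and probe sets with several symbols (932), unnamed ones (9160) and control probe sets (64) were left out of the gene counts. Python 3.11.15 with numpy 2.4.6, pandas 2.3.3, scipy 1.17.1 and matplotlib 3.10.9 was used. The pseudocount, 51.4, was the 25th percentile of all signals. With 1 array a side no test was possible, and gene lists are described by counts and medians. The calculation was tested on simulated data. The members and the 48 lists were chosen with earlier results of these data known, and 163 listed names had no probe set of 1 symbol.

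Named genes are the 24 furthest higher and the 24 furthest lower, up to 6 genes of each list by size of difference, defining members of lists, and the 10 furthest above and below all 3 other arrays. Genes named outside this rule were chosen after their values were seen. Promoters and gene order are from RefSeq (GRCm38.p6). Alternatives were other pseudocounts, filters, scalings, ways to pick probe sets, and leaving out probe sets with shared-probe names.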

Additional observations from a re-analysis of the deposited data

Results flagged for a closer look

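The median of NK receptors and adapters was 3.40 above normal marrow on the array labelled proB ALL and -1.26 in B/T BAL, so the same list lay on opposite sides of the same normal array. The median of monocyte genes was -1.21 on the array labelled proB ALL and 1.13 in mixed lineage leukemia. Both differences between leukemias were not tested, since each rests on 1 array a side.

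Signals were also found outside the gene counts. Of 9160 probe sets with no gene symbol in the annotation, 1213 lay above the floor on the array labelled proB ALL and not in normal marrow. The reverse held for 427. Of 932 probe sets with several symbols, 22 lay above the floor only on the array labelled proB ALL and 54 only in normal marrow. For the 34945 with 1 symbol these counts were 1617 and 2772.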

How the results depend on the processing

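Over 10 alternatives to the processing, 460 of 480 medians of lists, 2748 of 2980 differences of named genes and 19 of 20 counts of higher or lower genes moved by no more than 1.5-fold. The exceptions among list medians and counts follow. With a pseudocount at the 10th percentile, the eosinophil, basophil and mast cell list had -4.76, and at the 50th percentile it had -2.88 and killing proteins 1.90. With no filter on low signals, these lists had -3.04 and 1.82, and with low signals raised to the floor -2.68 and 1.90, and globins and membrane proteins -4.40. With a filter at the 75th percentile 1667 of only 8802 genes measured were lower. Medians there were -1.01 for inflammatory cytokines and chemokines, -1.41 for Hox genes, -6.32 for globins and membrane proteins and -2.12 for myeloid transcription factors. With genes above the floor on either of the 2 arrays, the CD3 list had 2.97 and Hox genes -1.05. With the mean over probe sets, globins and membrane proteins had -4.07 and the Myc network, 0.19 as reported, -0.50. Without probe sets with shared-probe names, killing proteins had 1.84, globins and membrane proteins -6.16, ribosomal proteins 1.02 and class I genes 0.97. In that setting 3 genes changed sign: Hmmr (0.66), Jarid2 (-0.11) and Prf1 (-0.68). The cause of these moves was not tested. The share of higher genes among all higher and lower ones was 37.6% as reported and 32.6% to 41.9% over the alternatives. Scaling to the 75th percentile gave a median of all genes of -0.19.

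There was no replicate to leave out, and signals near the floor limit what is said of dim genes. No paired analysis was possible because each group has 1 array.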

Other observations

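Probe sets with no gene symbol in the annotation differed from the named ones in the balance of directions. Of 3115 unnamed probe sets above the floor on the array labelled proB ALL or in normal marrow, 1503 (48.3%) were higher by 2-fold or more and 357 (11.5%) lower by as much, and the median log2 difference was 0.91. The shares among probe sets with 1 symbol were 15.6% and 19.6%. Against the same normal array, mixed lineage leukemia had 51.4% of unnamed probe sets higher and B/T BAL 35.5%. Median signals of the unnamed probe sets were low, 530 on the array labelled proB ALL and 229 in normal marrow.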
